A study of Homo sapiens with 7 samples.

Results

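Sphingosine-1-phosphate (S1P) genes were followed in 769-P, a line of human kidney cancer cells in wide use as a model of clear cell carcinoma. The set holds 10 of the 33117 listed gene entries: the kinases SPHK1 and SPHK2, the phosphatases SGPP1 and SGPP2, the lyase SGPL1, the ceramidase ASAH1, the exporter SPNS2 and the receptors S1PR1, S1PR2 and S1PR3. The set was chosen by the measured TPM of SGPP2, which was high in all Lat-M libraries, so the levels of SGPP2 against PA are a description with no test. The other 9 genes were taken for their function, with earlier results of these data known. RNA sequencing gave expression as TPM (transcript abundance scaled for length and to the same sum in every library) in 7 libraries of cells grown in medium with fetal bovine serum. Libraries were made with either of 2 kits, and which library used which is not stated. PA cells gave 3 libraries; the labels do not spell PA out. Lat-M cells, called latent metastatic in the title, gave 4 libraries: 2 numbered Lat-M1 (Lat-M1-1 and Lat-M1-2) and 2 numbered Lat-M2 (Lat-M2-1 and Lat-M2-2). The labels state neither what the first number stands for, nor how Lat-M cells were derived, whether they are clones, or whether the libraries of a number were separate cultures. All p-values therefore rest on the spread among libraries alone, and that spread may be technical. Depth is unknown, since TPM carries no read totals.

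S1P is a lipid messenger made inside cells when sphingosine, which ceramidases release from ceramide, is phosphorylated by a sphingosine kinase. Phosphatases turn it back into sphingosine, the lyase destroys it irreversibly, and the transporter SPNS2 carries it out of the cell to G protein-coupled receptors on the surface. In the kidney and its vessels the pathway is best known for control of endothelial barriers, immune cell traffic and fibrosis.

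Markers of the line did not all stand high. PAX8, a renal lineage factor, stood at 65.6 to 87.9 TPM, but PAX2, also a renal lineage factor, only at 0.633 to 1.63 TPM. The keratins KRT8 and KRT18 were at 88.8 to 206 and 259 to 441 TPM, and VIM at 1981 to 2428 TPM. CA9 and NDUFA4L2, hypoxia targets typical of clear cell tumours, were at most 0.156 and 0.105 TPM. Endothelial markers summed to at most 0.0853 TPM over the 4 of 7 that were listed, and CDH5 was listed at 0 in every library. Among the 4 of 7 leukocyte markers listed, PTPRC was at most 0.0121 TPM. The summed leukocyte level ran from 1.37 to 1.94 TPM in PA, 4.74 to 4.94 in Lat-M1 and 2.26 to 2.80 in Lat-M2, nearly all of it ITGAM, and its part in the results was not tested. Markers of fibroblasts and pericytes, 6 of 6 listed summed to 3.82 to 4.40 TPM in PA, 2.88 to 3.30 in Lat-M1 and 3.99 to 5.14 in Lat-M2. RGS5 was the highest of these, at 3.44 to 3.92 TPM in PA and 1.91 and 2.14 TPM in Lat-M1, and its part in the results was not tested either. The 3 of 6 erythroid and platelet markers listed summed to at most 0.313 TPM. A set of 4 structural RNAs (RN7SL1, RN7SL2, RN7SK and RMRP) took 29.5 to 31.8% of TPM in PA, 18.6 and 21.9% in Lat-M1, and 22.9 and 27.7% in Lat-M2. Over all tested genes, the median change against PA on the log2 scale was 0.16 (Lat-M1) and 0.14 (Lat-M2). It was 0.0037 and 0.0030 once libraries were scaled to a common median ratio. Scaled values are given for the 10 genes where scaling changed a call against PA, and for the list counts.

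In outline, Lat-M1 held more SPHK1, SGPP2, SGPL1 and S1PR2 transcript than PA and less SPNS2 and S1PR1, in a comparison where 44.8% of all tested genes were called and 68% did not overlap. On TPM as deposited, Lat-M2 stood near PA for most of the set. After scaling, SPNS2 (-0.39 on the log2 scale), ASAH1 (-0.17) and SGPL1 (-0.14) were called lower in Lat-M2, where 8.2% of all tested genes were. Without the 4 structural RNAs SPNS2 was called lower (-0.35), and ASAH1 and SGPL1 were not called, where 14.4% of all genes were. Against PA, Lat-M2 shared with Lat-M1 the high SGPP2 level and the very low S1PR1 level. In RNA from whole cultures, fewer cells that express a gene and less RNA per cell cannot be told apart.

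**Figure D1:**
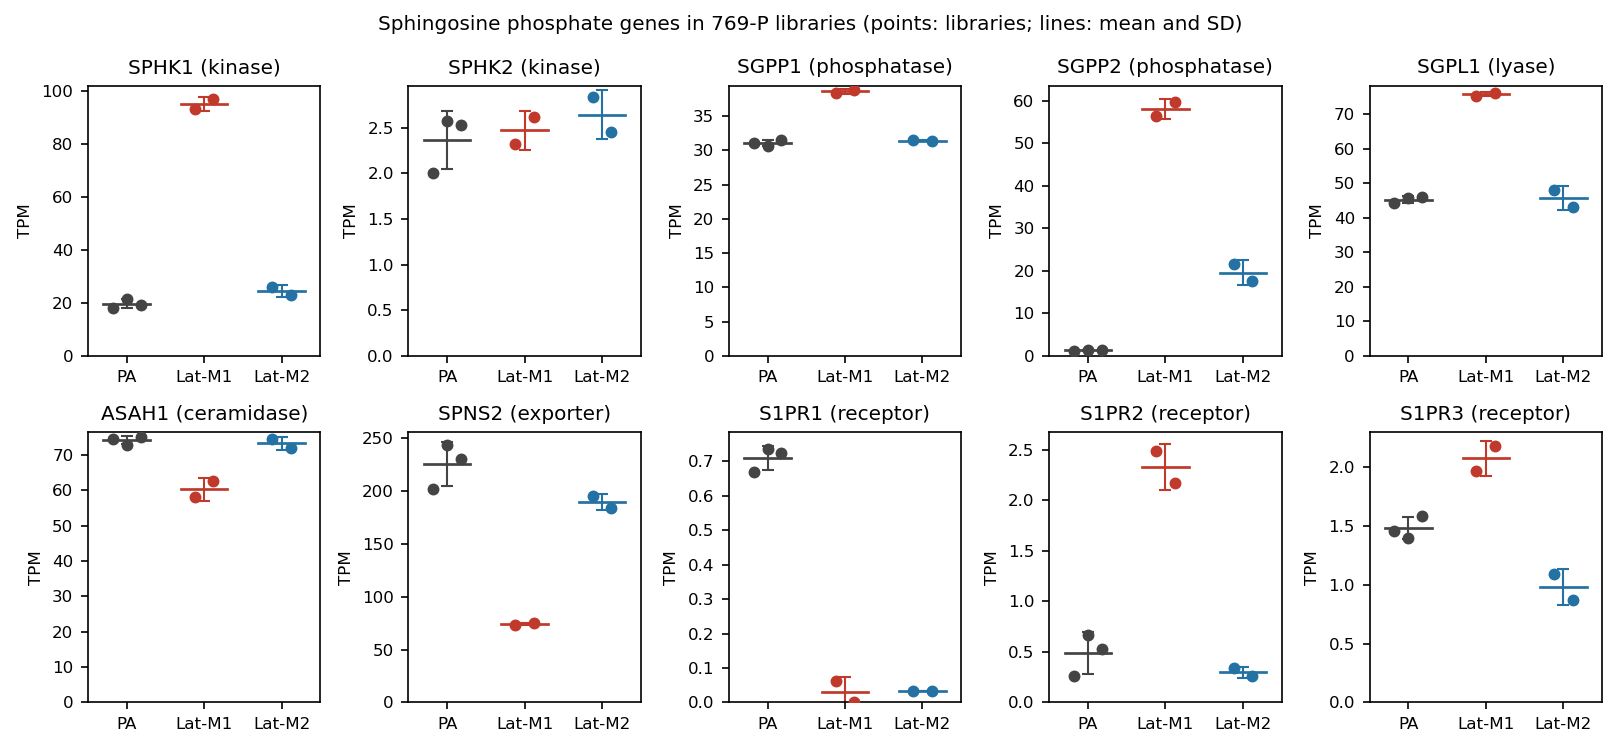
TPM (vertical axes, each from 0) of the 10 genes in PA, Lat-M1 and Lat-M2; points are libraries, horizontal lines are means and bars are SDs. SGPP2 is high in all 4 Lat-M libraries and S1PR1 is low in all of them. In SPHK1, SGPP1, SGPP2, SGPL1, ASAH1, SPNS2, S1PR2 and S1PR3 the Lat-M1 libraries overlap neither other group. Of all tested genes, 68% did not overlap between Lat-M1 and PA, and 68.3% between Lat-M1 and Lat-M2. The share for both at once was not counted. SGPP2 was chosen by its levels and S1PR2 is below the filter of the tested genes, so nothing is read from these shares.

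SGPP2 (ENSG00000163082.9) encodes an S1P phosphatase of the endoplasmic reticulum, and its transcription is known to respond to inflammatory signals through NF-kB. It stood at 1.08, 1.33 and 1.44 TPM in the PA libraries. The Lat-M1 libraries held 56.4 and 59.8 TPM, and the Lat-M2 libraries 21.7 and 17.6 TPM. The 3 groups did not overlap, and the group means were 45.3-fold higher in Lat-M1 and 15.3-fold higher in Lat-M2 than in PA. On the log2(TPM + 1) scale this was 4.70 ± 0.11 and 3.17 ± 0.11 (SE). Lat-M2 was lower than Lat-M1 by -1.53 ± 0.12 on that scale (limma adjusted p = 0.000105). The choice of SGPP2 used its levels in these same libraries, though not the gap between the pairs.

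The RefSeq reference promoters of SGPP2 are shown because the set was chosen by this gene, and 1 of the SPHK1 promoters because SPHK1 was the other enzyme with a large rise. The SPHK1 window shown is the only 1 of its 3 with an AP-1 match, so nothing is read from the match that both genes hold. Each line gives the 250 bases before an annotated start in build GRCh38.p14, on the plus strand, 5′ to 3′, with motif matches in capitals.
SGPP2, upstream start, chr2:222423738-222423987: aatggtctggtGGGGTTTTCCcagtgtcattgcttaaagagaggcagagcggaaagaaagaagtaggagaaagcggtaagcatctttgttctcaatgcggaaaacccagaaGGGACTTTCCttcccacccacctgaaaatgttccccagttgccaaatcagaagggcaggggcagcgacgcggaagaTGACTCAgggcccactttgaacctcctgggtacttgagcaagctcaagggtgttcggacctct
SGPP2, downstream start, chr2:222424293-222424542: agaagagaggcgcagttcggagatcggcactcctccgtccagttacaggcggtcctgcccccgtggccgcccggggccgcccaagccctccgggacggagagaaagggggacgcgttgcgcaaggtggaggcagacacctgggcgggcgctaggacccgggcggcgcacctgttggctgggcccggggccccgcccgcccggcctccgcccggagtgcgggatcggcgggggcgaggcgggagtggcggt
SPHK1, last of 3 starts, chr17:76385028-76385277: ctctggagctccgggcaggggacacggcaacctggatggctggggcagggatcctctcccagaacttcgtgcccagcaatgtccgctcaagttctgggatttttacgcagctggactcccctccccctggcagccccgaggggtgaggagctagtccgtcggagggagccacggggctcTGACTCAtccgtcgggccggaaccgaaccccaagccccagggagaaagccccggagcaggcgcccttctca

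The search covered 5 motifs on both strands: the NF-kappaB consensus, the AP-1 site TGANTCA, the TEAD site GGAATG, the hypoxia response core ACGTG and the SMAD palindrome GTCTAGAC. The upstream SGPP2 window held 2 NF-kappaB matches, GGGGTTTTCC and GGGACTTTCC, which begin 239 and 139 bases before the start, and the AP-1 match TGACTCA, which begins 63 bases before it. The downstream SGPP2 window held none of the 5 motifs. It was rich in G and C at 76% and held 31 CpG pairs, against 52% and 7 in the upstream window and a median of 58% and 11 over all 35116 windows. The last SPHK1 window held the AP-1 match TGACTCA 71 bases before its start. Over all windows of this length, 9.96% held an NF-kappaB match, 6.57% an AP-1 match, 11.9% a TEAD match, 18.5% the hypoxia core and 0.182% the SMAD palindrome. The table of promoters covered 7 of the 10 genes with 12 windows. SPHK2 held 1 hypoxia core match and 1 TEAD match, S1PR1 an NF-kappaB match and another SPHK1 window a TEAD match. The middle SPHK1 window and those of S1PR2, S1PR3 and SGPL1 held none. A match describes letters, not binding, and gene-level TPM does not show which start was used.

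Of 1003 tested genes whose range over the 7 libraries was at least 2 on the log2(TPM + 1) scale, 20 had a Pearson r of at least 0.99 with SGPP2. The 5 highest were PTRF, a caveolar coat protein (0.9992), ELOVL6, a fatty acid elongase (0.9987), the small RNA pseudogene RNU7-195P (0.9984), listed at 0 in every PA library, NKAIN4 (0.9979) and DSC2, a desmosomal cadherin (0.9978). PTRF ran from 0.0268 to 0.279 TPM in PA, was at 63.9 and 65.2 TPM in Lat-M1, and at 15.5 and 12.9 TPM in Lat-M2. DSC2 averaged 0.389 TPM in PA, 36.2 TPM in Lat-M1 and 10.3 TPM in Lat-M2. The 5 were picked for this likeness, and the 7 points fall into the 3 groups. PTRF, ELOVL6, RNU7-195P and DSC2 averaged under 1 TPM in PA and passed the filter only through the Lat-M libraries.

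SGPP1 (ENSG00000126821.7), the other S1P phosphatase, was expressed at a steady level in PA, at 31.1, 30.7 and 31.5 TPM. It was at 38.4 and 38.9 TPM in Lat-M1 and at 31.5 and 31.3 TPM in Lat-M2. Only Lat-M1 lay wholly above PA, by 0.31 ± 0.050 on the log2 scale (limma adjusted p = 0.00227). The rise was 0.13 after scaling (limma adjusted p = 0.0493) and lost its call without the 4 structural RNAs (0.11, limma adjusted p = 0.0666). Lat-M2 was lower than Lat-M1 by -0.29 ± 0.055 (limma adjusted p = 0.00581).

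SGPP2 was the minor phosphatase transcript in PA and the major one in Lat-M1. It held 3.35, 4.16 and 4.37% of their summed TPM in PA, 59.5 and 60.6% in Lat-M1, and 40.7 and 35.9% in Lat-M2. These shares do not depend on how a library is scaled. The summed phosphatase level (mean ± SD) was 32.4 ± 0.517 TPM over 3 PA libraries, 96.8 ± 2.77 TPM for the Lat-M1 pair and 51.1 ± 3.04 TPM for the Lat-M2 pair.

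SPHK1 (ENSG00000176170.9) encodes the inducible, largely cytosolic sphingosine kinase, which moves to the plasma membrane when active. It stood at 18.2, 21.4 and 19.4 TPM in PA and at 93.1 and 96.9 TPM in Lat-M1, with 26.1 and 22.8 TPM in Lat-M2. The Lat-M1 mean was 4.83-fold that of PA, and the log2 fold change was 2.22 ± 0.086 (SE; limma adjusted p = 2.6e-06). Both Lat-M2 libraries also lay above the PA libraries, but the difference of 0.30 ± 0.086 missed the threshold (limma adjusted p = 0.0588). It passed without Lat-M2-2 (0.39, limma adjusted p = 0.0414) and with a minimum mean of 5 TPM (0.30, limma adjusted p = 0.0238). It was 0.16 after scaling (limma adjusted p = 0.186). SPHK1 was lower in Lat-M2 than in Lat-M1 by -1.92 ± 0.095 (limma adjusted p = 1.19e-05).

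SPHK2 (ENSG00000063176.11), the kinase found in the nucleus and mitochondria, was low and overlapped in all groups. It was at 2.00, 2.58 and 2.53 TPM in PA, 2.32 and 2.62 in Lat-M1, and 2.83 and 2.45 in Lat-M2. The log2 fold change was 0.046 ± 0.14 in Lat-M1 (limma adjusted p = 0.81) and 0.12 ± 0.14 in Lat-M2 (limma adjusted p = 0.591). SPHK1 made up 88.4 to 90.1% of summed kinase TPM in PA, 97.4 and 97.6% in Lat-M1, and 90.2 and 90.3% in Lat-M2. In the GENCODE annotation SPHK2 exons share 4.09% of their bases with RPL18, 11.0% with DBP and 11.3% with the antisense gene AC022154.1, all on the other strand. RPL18 was at 156 to 228 TPM and DBP at 0.133 to 0.249 TPM. Whether counting used strand is not stated, so the SPHK2 level is uncertain. SPHK1 shares 1.34% with PRPSAP1 on the other strand, which went from 11.5 to 12.2 TPM in PA to 23.6 and 25.4 TPM in Lat-M1.

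ASAH1 (ENSG00000104763.13), the lysosomal acid ceramidase that supplies sphingosine, was at 74.6, 72.8 and 75.1 TPM in PA. It was at 57.9 and 62.5 TPM in Lat-M1, below every other library, and at 74.5 and 71.9 TPM in Lat-M2. The fall in Lat-M1 was -0.30 ± 0.056 (limma adjusted p = 0.00443), and -0.47 after scaling (limma adjusted p = 0.000101). ASAH1 was higher in Lat-M2 than in Lat-M1 by 0.28 ± 0.061 (limma adjusted p = 0.0111), a call lost without Lat-M1-1 (0.22, limma adjusted p = 0.0865). Against PA, Lat-M2 was at -0.018 ± 0.056 (limma adjusted p = 0.849), which became -0.17 after scaling and passed the threshold (limma adjusted p = 0.0268). Without the 4 structural RNAs that difference did not pass (-0.12, limma adjusted p = 0.084). ASAH1 shares 1.63% of its exonic bases with the antisense gene AC124242.1.

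SGPL1 (ENSG00000166224.12) encodes the lyase of the endoplasmic reticulum that cleaves S1P and closes the pathway. It was at 44.2, 45.7 and 45.9 TPM in PA and at 75.3 and 76.2 TPM in Lat-M1, with 48.1 and 43.2 TPM in Lat-M2. Lat-M1 lay above all other libraries, by 0.73 ± 0.061 against PA (limma adjusted p = 9.86e-05) and 0.56 after scaling (limma adjusted p = 5.29e-05). Lat-M2 overlapped PA (0.0097 ± 0.061, limma adjusted p = 0.928). After scaling its difference from PA turned to -0.14 and passed the threshold (limma adjusted p = 0.048). Without the 4 structural RNAs that difference did not pass (-0.093, limma adjusted p = 0.137). Lat-M2 was lower than Lat-M1 by -0.72 ± 0.067 (limma adjusted p = 0.000232).

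SPNS2 (ENSG00000183018.4), the S1P exporter, was the most abundant of the 10 transcripts in PA, at 202, 244 and 231 TPM. It was at 73.3 and 75.1 TPM in Lat-M1, and at 195 and 184 TPM in Lat-M2. The PA mean was 3.04-fold that of Lat-M1, and the log2 fold change in Lat-M1 was -1.59 ± 0.083 (SE; limma adjusted p = 1.1e-05). The Lat-M2 libraries lay just under PA, at -0.24 ± 0.083, which missed the threshold (limma adjusted p = 0.0911). That difference passed after scaling (-0.39, limma adjusted p = 0.02), without the 4 structural RNAs (-0.35, limma adjusted p = 0.0222), with a minimum mean of 5 TPM (limma adjusted p = 0.0458) and without PA-1 (-0.32, limma adjusted p = 0.0443). SPNS2 shares 3.38% of its exonic bases with MYBBP1A on the other strand, which was at 34.3 and 36.8 TPM in Lat-M1 against 14.9 to 17.7 TPM in PA. SPNS2 was higher in Lat-M2 than in Lat-M1 by 1.34 ± 0.091 (limma adjusted p = 5.06e-05). In each PA library SPNS2 was 11.1 to 11.9 times as abundant as SPHK1, against 0.787 and 0.775 times in Lat-M1 and 7.48 and 8.08 times in Lat-M2.

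S1PR1 (ENSG00000170989.8) signals through Gi and is the receptor best known for lymphocyte exit and endothelial barriers. It was at 0.669, 0.737 and 0.724 TPM in PA. The Lat-M1 libraries held 0.0613 TPM and a listed value of 0, and the Lat-M2 libraries 0.0321 and 0.0331 TPM. All 4 Lat-M values lay under every PA value, the highest of them at 0.0613 TPM. With a mean of 0.322 TPM over the 7 libraries S1PR1 fell below the filter and was not tested in the main analysis. In the fit without that filter the log2(TPM + 1) fold change was -0.73 ± 0.075 both in Lat-M1 (limma adjusted p = 0.00164) and in Lat-M2 (limma adjusted p = 0.00981). The added 1 makes that fold change much smaller than the ratio of the TPM values. TPM keeps no read counts, so how many reads lie behind such low levels is unknown.

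S1PR2 (ENSG00000267534.1), a receptor that couples to several G proteins, was also below the filter, with a mean of 0.959 TPM. It was at 0.263, 0.668 and 0.531 TPM in PA, 2.49 and 2.17 in Lat-M1, and 0.336 and 0.260 in Lat-M2. Lat-M1 lay above all other libraries, at 4.78 times the PA mean, while Lat-M2 and PA overlapped. Without the filter the fold changes were 1.17 ± 0.15 in Lat-M1 (limma adjusted p = 0.00347), -0.19 ± 0.15 in Lat-M2 (limma adjusted p = 0.553) and -1.36 ± 0.16 for Lat-M2 against Lat-M1 (limma adjusted p = 0.00372). S1PR2 exons share 2.28% of their bases with DNMT1 on the same strand, and DNMT1 was at 46.5 to 58.9 TPM, with 51.0 and 52.8 TPM in Lat-M1.

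S1PR3 (ENSG00000213694.3), which couples to Gi, Gq and G12/13, was at 1.46, 1.40 and 1.58 TPM in PA. It was at 1.97 and 2.18 TPM in Lat-M1 and at 1.09 and 0.871 TPM in Lat-M2, so the groups did not overlap. Neither difference from PA passed the threshold: 0.31 ± 0.15 in Lat-M1 (limma adjusted p = 0.132) and -0.33 ± 0.15 in Lat-M2 (limma adjusted p = 0.175). Lat-M2 was lower than Lat-M1 by -0.64 ± 0.16 (limma adjusted p = 0.0203). That call was lost without Lat-M1-1 (limma adjusted p = 0.0697), without Lat-M1-2 (0.114) and without Lat-M2-2 (0.0744).

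The make-up of the 3 receptors differed among the groups, at low summed levels: 2.68 ± 0.251 TPM (mean ± SD) over 3 PA libraries, 4.44 ± 0.117 TPM for the Lat-M1 pair and 1.31 ± 0.208 TPM for the Lat-M2 pair. S1PR1 held 25.5 to 28.0% of the sum in PA, at most 1.36% in Lat-M1 and at most 2.84% in Lat-M2. S1PR2 held 17.8 ± 6.44% in PA, 55.1 and 49.9% in Lat-M1, and 23.0 and 22.3% in Lat-M2. S1PR3 held 55.6 ± 5.51% in PA, 43.6 and 50.1% in Lat-M1, and 74.8% in both Lat-M2 libraries.

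**Figure D2:**
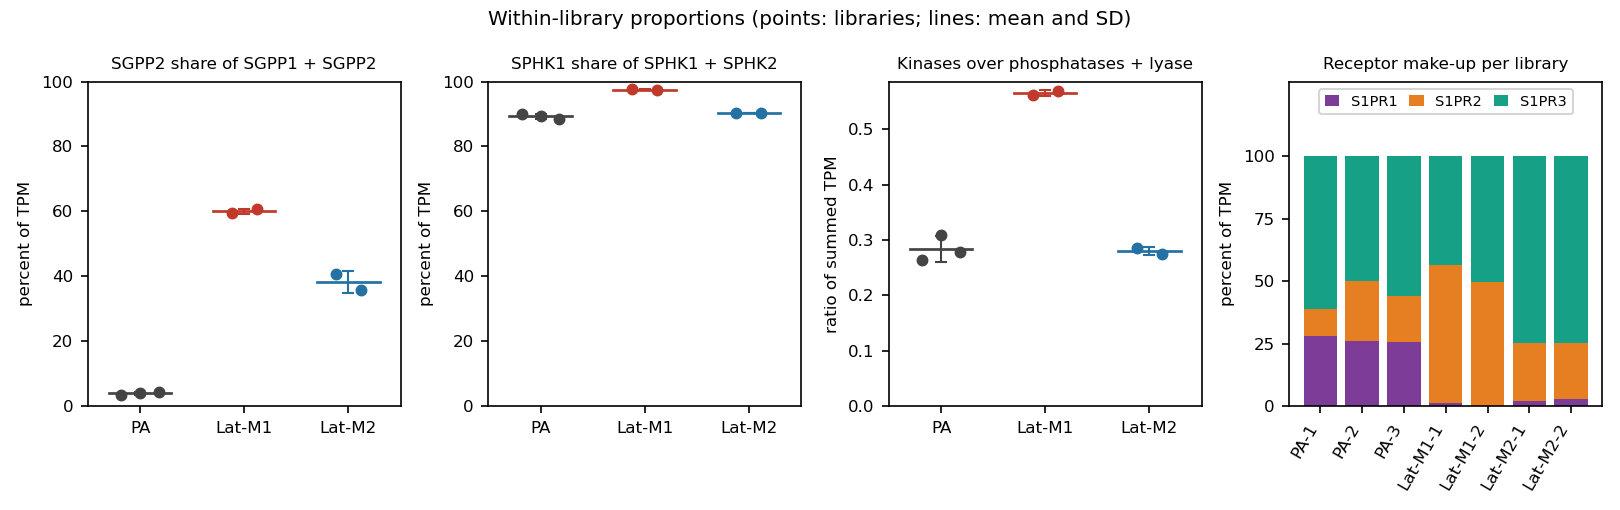
SGPP2 share of the phosphatases, SPHK1 share of the kinases (percent of summed TPM), the ratio of summed kinase to summed phosphatase and lyase TPM, and the receptor make-up of each library as stacked bars; points are libraries, lines are means and bars SDs. SGPP2 goes from at most 4.37% in PA to 59.5 and 60.6% in Lat-M1, and S1PR1 nearly vanishes from the receptor bars of all Lat-M libraries.

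Summed kinase TPM and the summed TPM of S1P-removing enzymes were both higher in each Lat-M1 library than in any PA library. The ratio of summed kinase TPM to summed phosphatase and lyase TPM was 0.265, 0.309 and 0.278 in PA, 0.561 and 0.569 in Lat-M1, and 0.286 and 0.274 in Lat-M2. Lat-M2 lay within the range of PA in spite of its SGPP2 level. By mean level, PA ran SPNS2, ASAH1, SGPL1, SGPP1, SPHK1, SPHK2, S1PR3, SGPP2, S1PR1 and S1PR2, where S1PR3 and SGPP2 overlapped. In Lat-M1 SPHK1 came first, at 95.0 ± 2.69 TPM, followed by SGPL1 at 75.8 ± 0.625 and SPNS2 at 74.2 ± 1.31, which came close to each other. ASAH1 and SGPP2 followed and overlapped, then came SGPP1, SPHK2, S1PR2, S1PR3 and S1PR1. In Lat-M2 the order of the first 5 was that of PA, and SGPP2, at 19.6 ± 2.90 TPM, came next after SPHK1, at 24.5 ± 2.31 TPM.

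Counted over the set, 8 of the 10 genes reached a mean of 1 TPM and were tested, 7 of them other than SGPP2. In Lat-M1 against PA, 3 of these 7 were higher (SPHK1, SGPL1 and SGPP1) and 2 lower (SPNS2 and ASAH1), where 33.2% of all tested genes were higher and 11.6% lower. After scaling the same 5 passed, where 47% of all genes did, 24% higher and 23% lower. In 9 of the 10 genes the Lat-M1 and PA libraries did not overlap, as in 68% of all tested genes. The choice of SGPP2 used this comparison, so nothing is read from these shares. Leaving out Lat-M1-2 lowered the share of all genes called from 44.8 to 28.1% and left 5 of the set called.

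In Lat-M2 against PA none of the 7 passed limma's test, and 2 were at an unadjusted p under 0.05 (SPHK1 and SPNS2). Of all tested genes 12.7% were higher and 2.24% lower, 14.9% together, and leaving out any 1 library except Lat-M2-2 gave 2.95% (without Lat-M2-1) to 9.38% together. Leaving out Lat-M2-2 gave 18.9%. After scaling 3 of the 7 were lower (SPNS2, ASAH1 and SGPL1), where 15.9% of all genes passed, 7.7% higher and 8.2% lower. The libraries did not overlap in 5 of the 10 genes (SPHK1, SGPP2, SPNS2, S1PR1 and S1PR3), against 49.8% of all tested genes. SGPP2 was chosen by this comparison and S1PR1 is below the filter of the tested genes, so nothing is read from that count. Both comparisons share the PA libraries.

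In Lat-M2 against Lat-M1, 7 of the 8 tested genes differed, SGPP2 among them, where 36% of all tested genes did. The choice of SGPP2 used its level in these libraries, and the genes were chosen with earlier results known, so this count is a description. SPNS2 and ASAH1 were higher in Lat-M2, where 16% of all genes were, and SPHK1, SGPP2, SGPL1, S1PR3 and SGPP1 were lower, where 20.1% were. SPHK2 was the exception. After scaling 7 also passed, against 44.2% of all genes (21.9% higher and 22.3% lower). The libraries did not overlap in 8 of the 10 genes, against 68.3% of all tested genes. S1PR2, counted among them, is below the filter of the tested genes. Without Lat-M1-1 or without Lat-M1-2 the share of all genes was 23.6 or 22.9%. For the pooled comparison of all 4 Lat-M libraries with PA, none of the 7 passed limma's test and 1 was at an unadjusted p under 0.05, SPNS2 (-0.92 ± 0.39, limma adjusted p = 0.195). SPHK1 was at 1.26 ± 0.55 (limma adjusted p = 0.204). Of all tested genes 2.9% passed, 2.51% higher and 0.389% lower, and the gap between the Lat-M pairs counts as spread in that fit. Leaving out Lat-M2-2 raised that share to 11.1%, and leaving out any other library lowered it to between 0.107 and 0.551%. After scaling none of the 7 passed and 1.22% of all genes did, 0.682% higher and 0.538% lower. All 4 Lat-M libraries lay on 1 side of PA for 4 of the 10 genes, SPHK1 and SGPP2 above and SPNS2 and S1PR1 below, against 28.5% of all tested genes. SGPP2 was chosen for lying above PA and S1PR1 is below the filter, so nothing is read from that count either. Without the filter on low values 0.453% of all genes were called. With SGPP2 left aside, S1PR1 was then the 1 gene of the set called (limma adjusted p = 0.0199). All its values lay under 1 TPM.

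**Figure D3:**
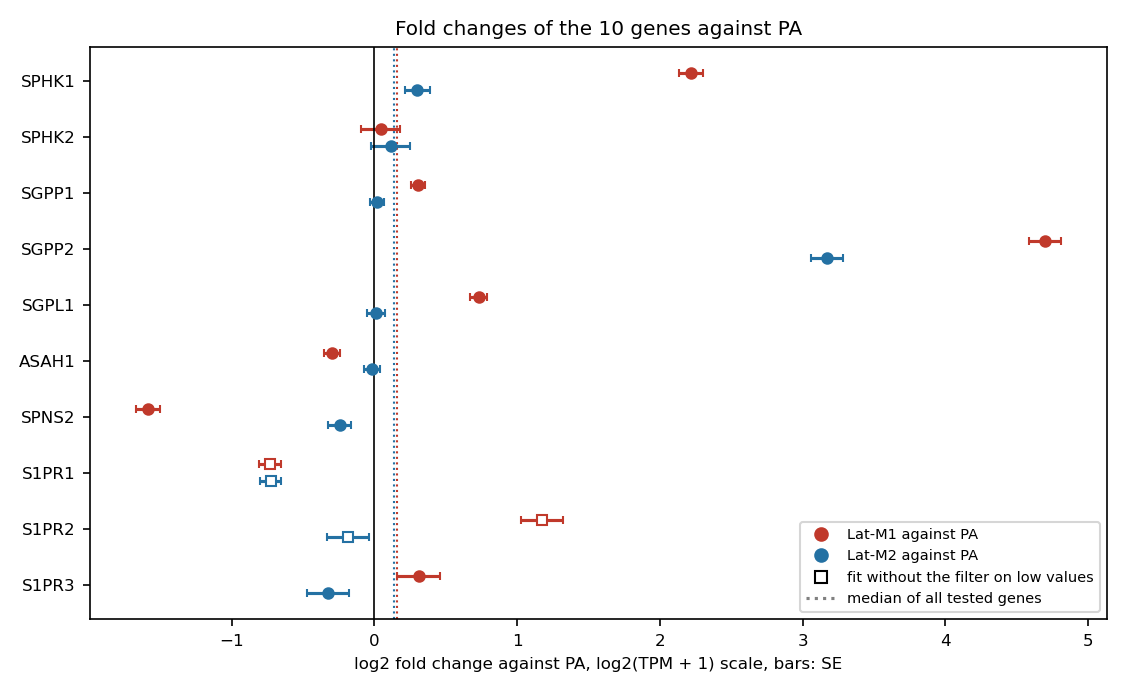
Log2 fold changes of the 10 genes against PA on the log2(TPM + 1) scale, Lat-M1 in red and Lat-M2 in blue; bars are SEs, open squares come from the fit without the filter on low values and dotted lines mark the median of all tested genes (0.16 and 0.14). The SGPP2 points are a description, and only SGPP2 and S1PR1 lie far from 0 in both groups.

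Around these genes, 7 lists of sphingolipid and related genes held 56 tested members. The lists were written with earlier results known, so their counts are a description. In Lat-M1 24 were higher and 10 lower than in PA, with a median log2 fold change of 0.18 against 0.16 over all tested genes, of which 33.2% were higher and 11.6% lower. After scaling 17 were higher and 18 lower, with a median of 0.0056, where 24% of all genes were higher and 23% lower. In Lat-M2 7 were higher and 1 lower, with a median of 0.069 against 0.14, where 12.7% of all genes were higher and 2.24% lower. After scaling 3 were higher and 7 lower, with a median of -0.074, where 7.7% of all genes were higher and 8.2% lower. The balance of higher and lower calls in these lists thus moved with the scaling, and the scaled list counts were added after the data were seen.

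Among other genes that handle S1P, 3 of 6 tested were higher and 2 lower in Lat-M1, and 3 higher and none lower in Lat-M2. The median was 0.061 in Lat-M1 and 0.36 in Lat-M2. After scaling 3 were higher and 3 lower in Lat-M1, and the Lat-M2 counts did not move. Beside this list and those below, 33.2% of all tested genes were higher and 11.6% lower in Lat-M1, and 12.7% and 2.24% in Lat-M2. After scaling these shares were 24 and 23% in Lat-M1, and 7.7 and 8.2% in Lat-M2. PPAP2A and PPAP2C are lipid phosphate phosphatases, membrane enzymes that dephosphorylate S1P and related lipids. PPAP2A was at 39.4, 46.5 and 46.6 TPM in PA, 19.5 TPM in both Lat-M1 libraries, and 45.6 and 43.3 TPM in Lat-M2. Its fall in Lat-M1 was -1.14 ± 0.084 (limma adjusted p = 5.19e-05). PPAP2C was at 1.60, 1.55 and 1.23 TPM in PA, 0.0408 and 0.127 in Lat-M1, and 6.19 and 5.69 in Lat-M2. It was lower in Lat-M1 (-1.18 ± 0.15, limma adjusted p = 0.00071) and higher in Lat-M2 (1.50 ± 0.15, limma adjusted p = 0.00178). Lat-M2 exceeded Lat-M1 by 2.68 ± 0.16 (limma adjusted p = 3.05e-05). PPAP2C passed the filter and the naming minimum of 5 TPM only through Lat-M2, where it is high, so its differences are a description. ABCC1, a transporter that can export S1P, was higher in both pairs (0.84, limma adjusted p = 0.000139, and 0.47, limma adjusted p = 0.0119). So was ALDH3A2, which oxidises the aldehyde that the lyase releases (0.52, limma adjusted p = 0.00208, and 0.51, limma adjusted p = 0.012). The remaining receptors S1PR4 and S1PR5 averaged at most 0.0857 TPM in any group.

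Of 13 tested genes of ceramide synthesis, 4 were higher and 3 lower in Lat-M1, and 1 was higher in Lat-M2, with medians of -0.00084 and 0.10. After scaling 3 were higher and 6 lower in Lat-M1, and none higher and 1 lower in Lat-M2. Of 3 other ceramidases 1 was higher in Lat-M1, a call lost after scaling, and none in Lat-M2. Sphingomyelin and ceramide phosphate enzymes were higher in Lat-M1 for 5 of 8 and lower for none, where 33.2% of all tested genes were higher. Their median was 0.33, against 0.16 over all tested genes. After scaling 4 were higher and 1 lower in Lat-M1, and none passed in Lat-M2 in either case. In the glycosphingolipid list 8 of 16 tested genes rose and 2 fell in Lat-M1, and 3 rose and 1 fell in Lat-M2, with medians of 0.18 and 0.080. After scaling 6 rose and 4 fell in Lat-M1, and none rose and 3 fell in Lat-M2. B4GALNT1, which makes GM2 and GD2 gangliosides, was the gene of that list past 2-fold on the log2(TPM + 1) scale. ARSA, a lysosomal sulfatase (3.53 TPM in PA and 7.83 TPM in Lat-M1, on average), and A4GALT, the Gb3 synthase (5.67 and 2.41 TPM), came just short of it, at 0.99 (limma adjusted p = 0.00559) and -0.96 (limma adjusted p = 0.00433), although their mean TPM differed by more. B4GALNT1 was at 2.84, 3.13 and 2.63 TPM in PA, 9.39 and 9.37 in Lat-M1, and 4.12 and 4.04 in Lat-M2 (1.43 ± 0.093, limma adjusted p = 3.06e-05, and 0.40 ± 0.093, limma adjusted p = 0.0344). The Lat-M2 call was lost after scaling (0.28, limma adjusted p = 0.0908).

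Of the G protein alpha subunits that S1P receptors use, 2 of 7 were higher and 3 lower in Lat-M1, and none passed in Lat-M2. After scaling 1 was higher and 3 lower in Lat-M1, and 2 were lower in Lat-M2. GNAI1, a Gi subunit, was at 29.2, 27.3 and 27.1 TPM in PA, 6.29 and 6.89 in Lat-M1, and 24.7 and 21.9 in Lat-M2. Its fall in Lat-M1 was -1.93 ± 0.077 (limma adjusted p = 2.96e-06), and in Lat-M2 it missed the threshold (-0.25 ± 0.077, limma adjusted p = 0.0707), which it passed after scaling (-0.39, limma adjusted p = 0.00805). GNAI3, the Gi subunit with the highest level of the 3, had means of 287 TPM (PA), 303 TPM (Lat-M1) and 281 TPM (Lat-M2), and was the other gene lower in Lat-M2 after scaling (-0.18, limma adjusted p = 0.0217). The list of receptors for the related lipid lysophosphatidate, with the enzyme that makes it, had 1 of 3 tested genes higher in Lat-M1 and none called in Lat-M2. After scaling none was higher and 1 was lower in each.

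**Figure D4:**
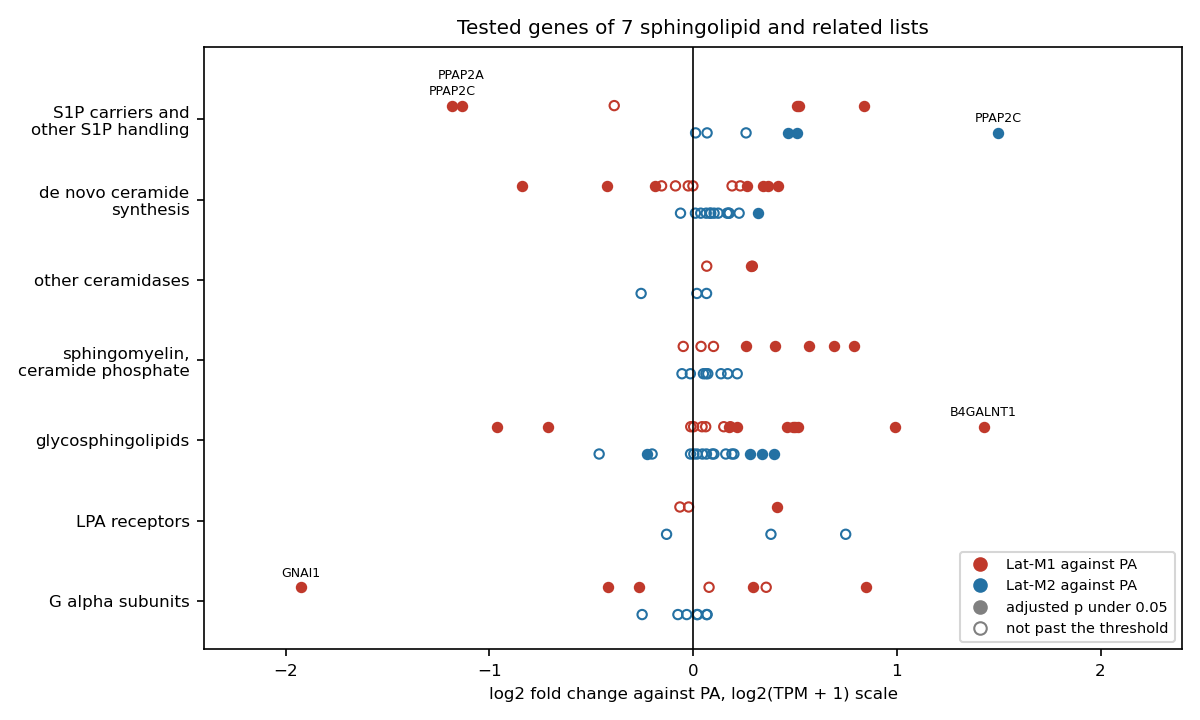
Log2 fold changes against PA (log2(TPM + 1) scale) of the 56 tested genes in 7 lists, Lat-M1 in red and Lat-M2 in blue; filled points passed limma's test at an adjusted p of 0.05 and named points changed by at least 2-fold with a called difference. The lipid phosphate phosphatase PPAP2C lies on opposite sides of 0 in the 2 pairs, at -1.18 and 1.50. It passed the filter only through Lat-M2, where it is high.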

How the data were processed

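For each library the authors deposited a table of TPM by gene identifier. That unit was inferred from the values, whose sum is 1000000 in each table. TopHat2 2.2.4 and build hg19 are named in the submitters' processing notes. The quantifier, annotation and strand setting are not given in the sources used here, nor is depth, since TPM keeps no read counts. Groups came from the titles. Values were taken as log2(TPM + 1). All 16724 entries with a mean of at least 1 TPM were fitted with limma 3.58.1 (R 4.3.3, trend and robust options) in 3 groups, or in 2 groups for Lat-M against PA, with Benjamini-Hochberg adjustment over all of them at 0.05. The fit was tested on simulated data. A symbol with several identifiers was read from the one with the highest mean; each of the 10 genes had 1. The genes and lists were chosen with earlier results of these data known. Named list genes are those with a called change of at least 2-fold against PA and at least 5 TPM in the higher group, up to 5 per list, and the 5 genes with the highest r with SGPP2; others were chosen after their values were seen. Of the 77 genes on the 7 lists, 75 were listed by symbol. Promoters are RefSeq's (GRCh38.p14) and exon overlaps come from GENCODE by identifier, both of another build than the deposited values.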

Additional observations from a re-analysis of the deposited data

Results flagged for a closer look

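For 7 of the 8 tested genes the change against PA differed between Lat-M1 and Lat-M2, where 36% of all tested genes differed. This was limma's test of Lat-M2 minus Lat-M1 in the fit of 3 groups. After scaling 44.2% of all genes differed. SGPP2, counted here, was chosen by its levels in these libraries. With the last numbers of the titles as a replicate block SGPP1, ASAH1 and S1PR3 lost their calls. On the log2(TPM + 1) scale the difference was -1.92 for SPHK1, -1.53 for SGPP2, -0.72 for SGPL1, -0.64 for S1PR3 and -0.29 for SGPP1. It was 1.34 for SPNS2 and 0.28 for ASAH1. The Lat-M2 libraries lay wholly below or above the Lat-M1 libraries in each of the 7, as did 68.3% of all tested genes.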

How the results depend on the processing

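TPM alone leaves depth unknown, and 2 libraries a Lat-M number limit every spread. Alternative fits of the tested genes of the set, other than SGPP2 against PA, kept direction and call in 359 comparisons with the reported fit, gained a call in 12, lost one in 15 and changed sign in 19. Of the 15 losses, 7 came from asking for 2-fold changes. None of the sign changes involved a gene called in the reported fit. After median-ratio scaling SGPL1 in Lat-M2 against PA turned to -0.14, the only such value past the threshold, SGPP1 to -0.13, and SPHK2 to -0.080 in Lat-M1 and -0.036 in pooled Lat-M. Without the 4 structural RNAs SGPL1 turned to -0.093, SGPP1 to -0.086 and SPHK2 to -0.10 and -0.029 in the same comparisons. Leaving out each library gave SPHK2 -0.035 to 0.11 in Lat-M1, -0.0060 to 0.14 in Lat-M2 against Lat-M1 and -0.00041 to 0.13 in pooled Lat-M. It gave SGPL1 -0.066 to 0.085 and ASAH1 -0.043 to 0.0073 in Lat-M2, and S1PR3 -0.13 to 0.12 in pooled Lat-M. Among list genes, scaling turned PPAP2A in Lat-M2 to -0.13, GNAI3 in Lat-M1 to -0.10 and ALDH3A2 in Lat-M2 against Lat-M1 to 0.021, an alternative chosen after seeing the data. With a 2-fold minimum, 2 genes of the set stayed called in Lat-M1 against PA (7.52% of all genes) and 3 in Lat-M2 against Lat-M1 (6.71%), and over all genes 1257, 249, 1123 and 121 were called in Lat-M1, Lat-M2, Lat-M2 against Lat-M1 and pooled Lat-M.

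In Lat-M2 against PA the set had 1 call without the filter on low values (4.63% of all genes, 1532 genes) and 2 of 5 tested with a minimum mean of 5 TPM (24.5%). It had 3 after scaling (15.9%) and 1 without the structural RNAs (14.4%). In pooled Lat-M against PA it had 1 call without the filter (0.453%) and 5 as the mean of both pairs in the fit of 3 groups (36.5%). Over all genes that comparison called 485, and 150 without the filter, 204 after scaling, 175 without the structural RNAs and 6106 in the fit of 3 groups. Leaving out each library gave 5 to 6 calls of the set in Lat-M1, 0 to 1 in Lat-M2, 5 to 8 in Lat-M2 against Lat-M1 and 0 throughout in pooled Lat-M. Without any 1 of the PA or Lat-M2 libraries S1PR2 passed the filter, through Lat-M1, where it is high. The call beyond 5 in Lat-M1 and the call beyond 7 in Lat-M2 against Lat-M1 are therefore S1PR2 and show nothing of the others. Over all genes leaving out each library gave 4679 to 7932, 492 to 3162, 3815 to 5852 and 18 to 1861.

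Whether the last numbers of the titles pair the libraries is not stated. Deviations of libraries with the same number were hardly correlated (-0.082 to 0.031). Between Lat-M1 and Lat-M2 both numbers gave 0.031, since deviations within a pair mirror each other. With the last numbers as a replicate block, calls over all genes were 943 in Lat-M2 against PA and 0 in pooled Lat-M. In that pooled fit 2060 genes had an unadjusted limma p under 0.05. In Lat-M2 against Lat-M1 the block left 4 calls of the set, without SGPP1, ASAH1 and S1PR3, and 28.7% of all genes. S1PR3 in pooled Lat-M was at 0.022 under the block. The cause of these changes was not tested.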
